A study of Homo sapiens with 8 samples.

Results

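The genes described here are those that bind zinc inside HEL cells or carry it across membranes: the metallothioneins, the SLC30A and SLC39A zinc transporters, and MTF1, the zinc-sensing transcription factor. They were chosen by symbol, as MTF1 and every gene with the name of a type 1 metallothionein (MT1 followed by a letter), MT2A, MT3, MT4, SLC30A or SLC39A, each read from whichever of the probe sets annotated to that gene alone was brightest on average across the 8 arrays. This gave 39 of the 17958 genes on the arrays: 14 metallothionein genes, 10 SLC30A genes, 14 SLC39A genes and MTF1. MT1A has no probe set of its own in the annotation and was not analysed here. The mean over the arrays, which picked the probe set, took no account of treatment. The gene group itself was picked with earlier results of these arrays known, so its counts describe these arrays and are no independent evidence. Genes with a mean under 4.37 on the log2 scale, the 30th percentile of all genes, were not tested, which left 32 of the 39 and 12570 genes in all.

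HEL is an established human erythroleukaemia line driven by an activated JAK2 kinase, so each measurement is of 1 line. The 4 groups, all harvested after 48 h, were cells given vehicle only (DMSO, the control), 0.5 µM LY2784544, a small-molecule JAK2 inhibitor, 20 µM GRN163L, a lipid-linked oligonucleotide that binds the RNA template of telomerase, or both agents. The doses are not restated for the combination. Each group has 2 Affymetrix arrays, 1 from each of 2 experiments made apart. Values are log2 RMA signals, given for experiments 1 and 2 in that order (n = 2 per group). Because the groups are bulk cultures, fewer cells of a kind and less RNA per cell cannot be told apart.

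Metallothioneins are small cysteine-rich proteins that hold zinc and copper and bind cadmium, and MT1 and MT2A transcripts rise when free zinc rises. MTF1 reads zinc through its zinc fingers and binds metal response elements in the promoters of metallothionein genes and of SLC30A1. SLC30A proteins (ZnT) move zinc out of the cytosol, to the outside or into organelles, and SLC39A proteins (ZIP) move zinc into the cytosol. MT1 and MT2A genes also respond to glucocorticoids and to cytokines that act through STAT3, and red cell precursors need zinc for haemoglobin synthesis.

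The promoters of MT2A and MT1X, whose transcripts fell with both agents together, are shown because the metal response elements sit in them, and that of MT4, the outermost gene of the same cluster, which was called in no comparison, stands beside them. Each is the 250 bases before the transcription start in RefSeq sequence (GRCh38.p14), + strand, at chr16:56608334-56608583 for MT2A, chr16:56682220-56682469 for MT1X and chr16:56564823-56565072 for MT4. Capitals mark the core of the metal response element, TGCACNC or TGCGCNC, on either strand.
MT2A: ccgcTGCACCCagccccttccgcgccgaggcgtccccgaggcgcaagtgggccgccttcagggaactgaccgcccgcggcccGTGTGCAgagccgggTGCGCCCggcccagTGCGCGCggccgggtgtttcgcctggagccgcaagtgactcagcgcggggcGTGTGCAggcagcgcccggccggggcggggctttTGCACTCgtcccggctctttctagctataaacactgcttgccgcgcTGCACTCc
MT1X: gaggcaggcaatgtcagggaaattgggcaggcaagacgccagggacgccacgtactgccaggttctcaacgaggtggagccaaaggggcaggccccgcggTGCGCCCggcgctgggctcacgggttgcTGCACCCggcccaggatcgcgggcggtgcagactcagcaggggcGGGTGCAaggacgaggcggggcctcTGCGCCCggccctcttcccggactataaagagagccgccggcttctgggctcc
MT4: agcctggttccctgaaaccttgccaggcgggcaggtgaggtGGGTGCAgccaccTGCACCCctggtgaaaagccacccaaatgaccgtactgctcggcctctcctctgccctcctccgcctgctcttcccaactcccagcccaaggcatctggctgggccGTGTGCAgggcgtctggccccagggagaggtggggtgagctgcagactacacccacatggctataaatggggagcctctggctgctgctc
MT2A held 7 matches, MT1X 4 and MT4 3. MT1H, which held 8, was also called in no comparison, as was MT1B with 3. MT4 is not an unchanged gene, as every treated array lay below both of its controls. A TATAAA box stood 29, 30 and 29 bases before the start of MT2A, MT1X and MT4, and 7.17% of all promoters held these letters on the given strand. Of the metallothionein promoters in the RefSeq table, those of 5 of 14 genes (MT1B, MT1H, MT1X, MT2A and MT4), all had at least 3 matches, from 3 in MT1B and MT4 to 8 in MT1H, with overlapping matches counted apart and a palindromic one once. Of 27305 promoters of that length, 24.7% held at least 1 match and 1.56% at least 3. Among the transporters, 5 of 9 SLC30A promoters had a match (1 in SLC30A1, 2 in SLC30A3, 3 in SLC30A2) and 2 of 12 SLC39A promoters (1 each in SLC39A3 and SLC39A6). The MTF1 promoter had none. The letters TTCNNNGAA, to which STAT proteins bind, were in the MT2A, MT4, SLC30A6 and SLC39A10 promoters and in 6.78% of all promoters, searched on both strands. A match is a stretch of letters, and binding was not measured.

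**Figure D1:**
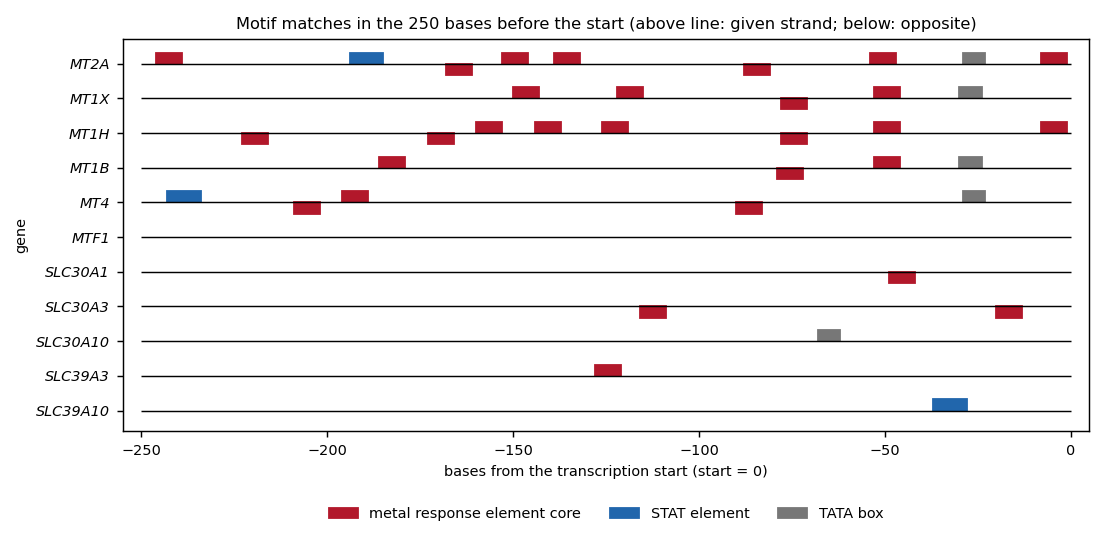
Positions of motif matches in the 250 bases before the transcription start of 5 metallothionein genes, MTF1 and 5 transporter genes, in bases from the start; boxes above a line are on the given strand and boxes below it on the opposite strand. The metallothionein promoters carry 3 to 8 metal response element cores (red), the transporters shown 0 to 2.

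The array medians lay between 5.07 and 5.25 over all probe sets. Over the tested genes, the array medians of the treated groups differed from control by -0.1025 for LY2784544, 0.015 for GRN163L and -0.175 for the combination. Changes are given on the deposited scale, and those of called members kept their sign when all arrays were set to one median. The LY2784544 and combination arrays of experiment 1 stood apart on the first principal component (40.7% of the variance), at 22.0 and 37.0 against -1.23 and 11.9 for the same treatments in experiment 2. Of 11 listed erythroid and megakaryocytic markers all 7 measured (GATA1, KLF1, TAL1, EPOR, ITGA2B, ITGB3 and PF4) passed the filter. Their summed signal was 69.21 to 70.09 in the combination, against 66.64 to 67.95 in control, 68.41 to 68.88 in LY2784544 and 66.46 to 68.34 in GRN163L, and 1 of the 7 was called higher with the combination. PF4, a platelet chemokine, was at 6.11 and 6.27 in control and 7.69 and 8.52 in the combination. The mean of 2 of the 7 was lower with the combination. KLF1 went from 9.51 and 9.04 to 8.88 and 8.99, and GATA1 from 10.70 and 10.29 to 10.30 and 10.30. The median change of the 7 was 0.045, so the higher sum was not shared by all of them. Of the markers of other cells, 1 of 4 measured for T cells passed (CD2) and 0 of 3 for B cells. For monocytes 2 of 3 passed (LYZ and CSF1R), and for fibroblasts and epithelium 2 of 6 (COL1A1 and COL1A2). CD3D, CD3E, CD3G, MS4A1, PAX5, CD14 and EPCAM did not. LYZ was as bright as GATA1, at 10.26 to 10.69 over the arrays against 10.23 to 10.70. The summed T cell signal was 18.42 to 19.07 in the combination, against 17.52 to 17.89 in control, 17.48 to 17.54 in LY2784544 and 17.25 to 17.41 in GRN163L. The summed B cell signal was 10.93 to 11.33 in the combination, against 10.05 to 10.11, 10.50 to 10.80 and 10.06 to 10.90 in the same order. That of fibroblasts and epithelium was 24.11 to 24.78, against 23.59 to 23.89, 23.96 to 24.15 and 23.61 to 23.81, and that of monocytes 18.67 to 18.71, against 18.26 to 18.89, 18.20 to 18.71 and 18.43 to 18.50. The part of these signals in the results was not tested. MT1E, MT1G and MT2A, the marker genes of the group described here, all passed.

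MTF1 was at 8.87 and 9.25 in control (experiments 1 and 2), 8.80 and 9.13 under LY2784544, 8.81 and 8.82 under GRN163L and 8.78 and 9.10 under both agents. Control overlapped LY2784544 and the combination, and lay just above GRN163L. The largest change was -0.245 with GRN163L (95% interval -0.70 to 0.21, limma adjusted p = 0.995), so the transcript of the sensor was called in no comparison.

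Of the 13 tested metallothioneins, 12 had a lower mean than control under each treatment. A gene was called at a Benjamini-Hochberg adjusted p below 0.05 in limma over all 12570 genes. LY2784544 against control, which asked what the JAK2 inhibitor did, called 4 of the 13 tested metallothioneins lower, MT1E, MT1F, MT1G and MT1L. In that comparison 0.883% of all tested genes were called lower. GRN163L against control, on the telomerase inhibitor, called none, as it called 0% of all genes, although 11 of 13 were lower at an unadjusted p below 0.05, where 2.28% of all genes were. The combination against control called 5 lower, MT1E, MT1G, MT1L, MT1X and MT2A, where 2.71% of all genes were. None was called higher, where 0.39% and 0.756% of all genes were with LY2784544 and the combination. At an unadjusted p below 0.05, 8 metallothioneins were lower with LY2784544 and 9 with the combination, beside 8.85% and 15.9% of all genes. The 3 comparisons share the 2 control arrays, and the members are near-identical copies whose probes can take up one another's transcripts, so their counts are not independent of each other.

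**Figure D2:**
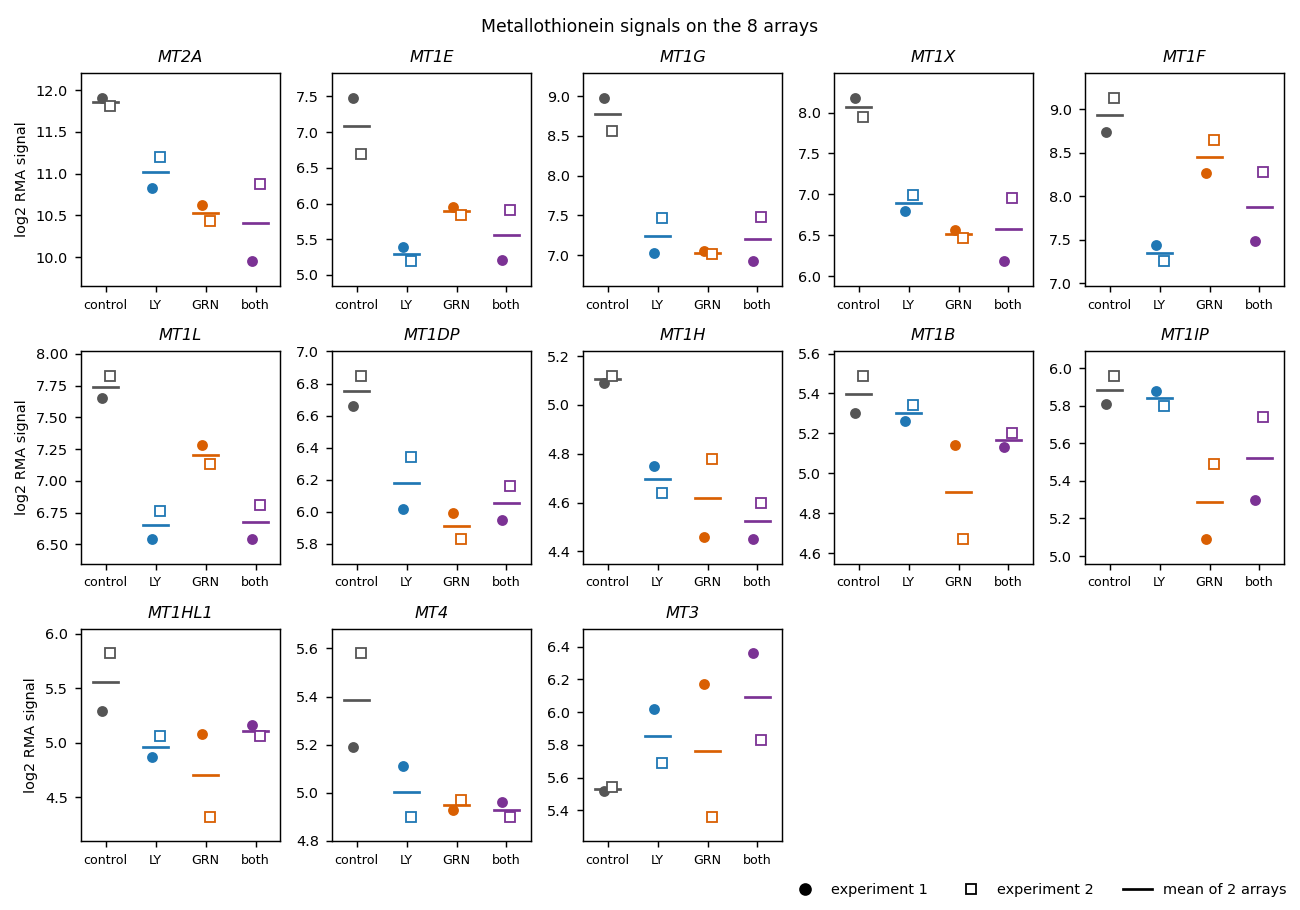
Log2 RMA signal of the 13 tested metallothionein genes on each array, by treatment (LY, LY2784544; GRN, GRN163L; both, the combination); filled circles are experiment 1, open squares experiment 2, and bars the mean of 2 arrays. For MT2A, MT1E, MT1G, MT1X, MT1F and MT1L both control arrays lie above the arrays of each treatment; MT3 goes the other way.

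MT2A, the only type 2 metallothionein, was at 11.91 and 11.81 in control, 10.83 and 11.20 under LY2784544, 10.63 and 10.43 under GRN163L and 9.95 and 10.88 under both agents. Every treated array was below both controls, and the combination arrays were the furthest apart. It fell with the combination (log2 change -1.445, SE 0.28, adjusted p = 0.0344), a 2.72-fold difference. The changes of -0.845 with LY2784544 (adjusted p = 0.231) and -1.33 with GRN163L (adjusted p = 0.589) were not called.

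Other probe sets annotated to MT2A alone gave the same order of groups. One was at 11.49 in control, 10.65 under LY2784544, 10.11 under GRN163L and 9.825 under both (means of 2 arrays), and the other at 10.115, 9.295, 8.825 and 8.745. These 3 probe sets may share sequence and are not separate evidence.

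MT1E, a type 1 metallothionein, was at 7.48 and 6.70 in control, 5.39 and 5.19 under LY2784544, 5.95 and 5.84 under GRN163L and 5.21 and 5.91 under both agents. The groups did not overlap with control, though the 2 control arrays were well apart. It fell by 1.80 with LY2784544 (SE 0.29, adjusted p = 0.0263) and fell by 1.53 with the combination (SE 0.29, adjusted p = 0.0323). With GRN163L the change was -1.195 (adjusted p = 0.713).

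MT1G, a type 1 gene transcribed on the opposite strand to its neighbours, was at 8.98 and 8.56 in control, 7.02 and 7.47 under LY2784544, 7.05 and 7.01 under GRN163L and 6.92 and 7.48 under both agents. All treated groups lay well below control and overlapped one another. It fell by 1.525 with LY2784544 (SE 0.24, adjusted p = 0.0251) and fell by 1.57 with the combination (SE 0.24, adjusted p = 0.0169). The change of -1.74 with GRN163L (95% interval -2.30 to -1.18) had an unadjusted p of 6.80e-05 and an adjusted p of 0.201.

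MT1X was at 8.18 and 7.95 in control, 6.80 and 6.99 under LY2784544, 6.56 and 6.47 under GRN163L and 6.18 and 6.96 under both agents. It fell by 1.495 with the combination (SE 0.25, adjusted p = 0.0210), while -1.17 with LY2784544 (adjusted p = 0.0695) and -1.55 with GRN163L (adjusted p = 0.225) were not called. With the experiment as a block the change with LY2784544 passed (adjusted p = 0.0392). No treated array reached the lower control.

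MT1F was at 8.74 and 9.13 in control, 7.44 and 7.25 under LY2784544, 8.27 and 8.64 under GRN163L and 7.48 and 8.28 under both agents. Here LY2784544 gave the lowest mean, and GRN163L lay just under control. It fell by 1.59 with LY2784544 (SE 0.27, adjusted p = 0.0337), and the changes of -0.48 with GRN163L (adjusted p = 0.995) and -1.055 with the combination (adjusted p = 0.0717) were not called.

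MT1L, a transcribed pseudogene, was at 7.65 and 7.83 in control, 6.54 and 6.76 under LY2784544, 7.28 and 7.13 under GRN163L and 6.54 and 6.81 under both agents. The GRN163L arrays stood between control and the other treatments without overlap. It fell by 1.09 with LY2784544 (SE 0.17, adjusted p = 0.0242) and fell by 1.065 with the combination (SE 0.17, adjusted p = 0.0204), and was at -0.535 with GRN163L (adjusted p = 0.994).

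The remaining metallothioneins were called in no comparison. MT1DP, a pseudogene, was at 6.66 and 6.85 in control, 6.02 and 6.34 under LY2784544, 5.99 and 5.83 under GRN163L and 5.95 and 6.16 under both agents (changes -0.575, -0.845 and -0.70, adjusted p = 0.195, 0.588 and 0.0686). MT1H was at 5.09 and 5.12 in control, 4.75 and 4.64, 4.46 and 4.78, and 4.45 and 4.60 with the treatments in the same order. Both had every treated array below control.

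MT1HL1, a MT1H-like gene on chromosome 1, was at 5.29 and 5.82 in control, 4.87 and 5.06 under LY2784544, 5.08 and 4.32 under GRN163L and 5.16 and 5.06 under both agents. MT4, known from stratified epithelium, was at 5.19 and 5.58, then 5.11 and 4.90, 4.93 and 4.97, and 4.96 and 4.90. In both of these low-signal genes the treated arrays were below control. MT1B was at 5.30 and 5.49, then 5.26 and 5.34, 5.14 and 4.67, and 5.13 and 5.20, and overlapped with control under LY2784544. The pseudogene MT1IP was at 5.81 and 5.96, then 5.88 and 5.80, 5.09 and 5.49, and 5.30 and 5.74, with LY2784544 overlapping control (-0.045).

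MT3, the metallothionein known from brain, had the opposite sign. It was at 5.52 and 5.54 in control, 6.02 and 5.69 under LY2784544, 6.17 and 5.36 under GRN163L and 6.36 and 5.83 under both agents. The GRN163L arrays lay on either side of control, and the change of 0.565 with the combination was not called (adjusted p = 0.272).

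Over the 13 tested metallothioneins the median change was -0.59 with LY2784544, -0.595 with GRN163L and -0.70 with the combination, beside -0.04, 0.005 and -0.065 over all genes tested. In each comparison 12 of the 13 had a lower mean than control, and MT3 a higher one, where 56.3%, 49.2% and 57.2% of all genes were lower. Both treated arrays lay below both controls for 10 metallothioneins with LY2784544, 12 with GRN163L and 12 with the combination, against 25.2%, 16.4% and 32.2% of all genes tested. Within experiments the metallothionein median was -0.64 and -0.68 under LY2784544 in experiments 1 and 2, -0.63 and -0.82 under GRN163L, and -0.71 and -0.76 under both agents.

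**Figure D3:**
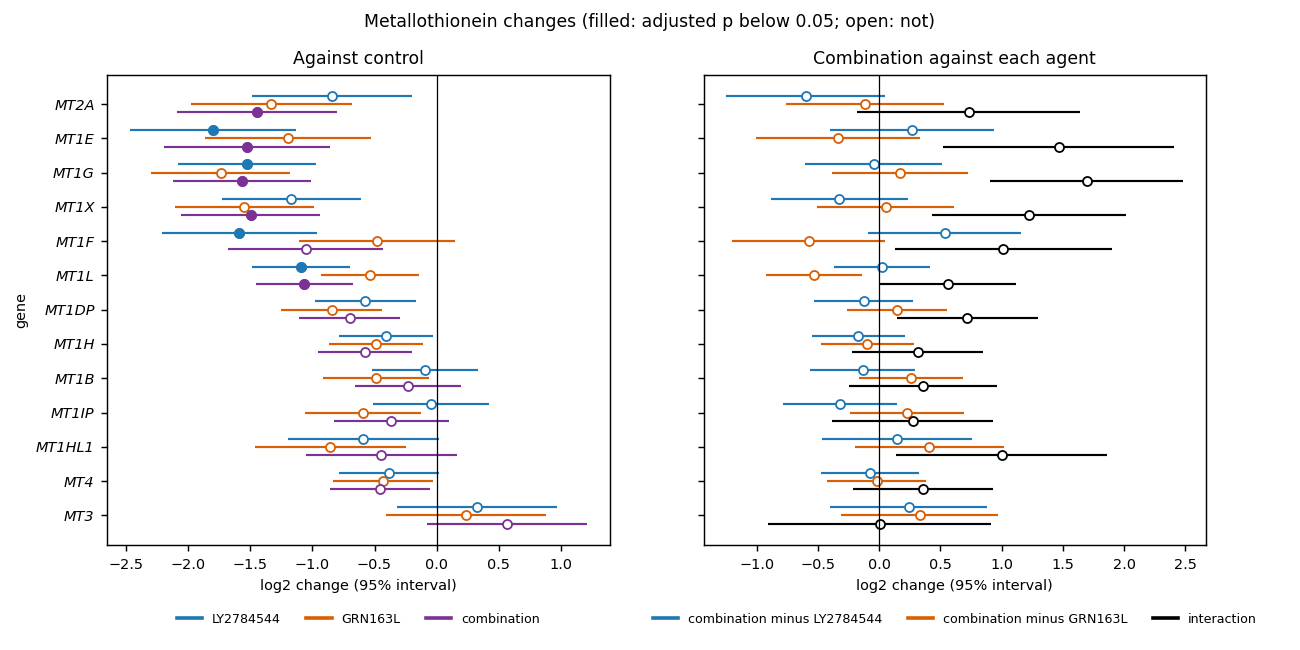
Log2 change (points) with 95% interval (lines) of the 13 tested metallothioneins, on the left against control and on the right for the combination against each agent, with the interaction in black; filled points have an adjusted p below 0.05. On the left 12 genes lie below 0 under each treatment. On the right no point is filled, and the interaction lies above 0 for all 13, from 0.005 for MT3 to 1.695 for MT1G.

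Adding the second agent asked whether metallothioneins went lower still. No metallothionein was called in the combination against LY2784544 (smallest adjusted p = 0.407, none at an unadjusted p below 0.05) or against GRN163L (smallest adjusted p = 0.230, with MT1L lower at an unadjusted p below 0.05), where limma called 0.231% and 0.469% of all genes lower and 0.0796% and 0.0716% higher. At an unadjusted p below 0.05 the shares of all genes were 8.22% and 10.9% lower and 5.27% and 3.51% higher. The combination mean lay between those of the single agents for 8 of the 13 genes, below both for 3 and above both for 2. For MT1G the combination differed from LY2784544 by -0.045 (95% interval -0.60 to 0.51) and from GRN163L by 0.17 (-0.39 to 0.73). For MT2A the same differences were -0.60 (-1.25 to 0.05) and -0.115 (-0.76 to 0.53).

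The interaction compares the combination with the sum of the single-agent changes on the log2 scale, and a value above 0 means that the combination stood higher than that sum, which for a gene lowered by each agent is a smaller fall. It was above 0 for all 13 metallothioneins, with a median of 0.72, where 45.3% of all genes were above 0 and their median was -0.03. It was 1.695 for MT1G (95% interval 0.91 to 2.48, unadjusted p = 9.48e-04), 1.465 for MT1E and 1.225 for MT1X, and 7 of 13 had an unadjusted p below 0.05, against 1.24% of all genes in that direction. None was called by limma (smallest adjusted p = 0.542), nor was any gene of the table (0%). In the other direction, 2 members (SLC39A3 and SLC39A14) had an unadjusted p below 0.05, beside 2.45% of all genes. The interaction takes in the control arrays, as do the falls given above.

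The single agents were set against each other in a comparison added after the data were seen. The difference of LY2784544 from GRN163L was -1.11 for MT1F (SE 0.27, adjusted p = 0.101), and the differences of MT1E and MT1L were -0.605 (adjusted p = 0.382) and -0.555 (adjusted p = 0.175). For MT2A and MT1X it was 0.485 and 0.38 (adjusted p = 0.471 and 0.517). None was called, where 0.819% of all genes were called lower and 0.231% higher. At an unadjusted p below 0.05, 3 members were lower (MT1F, MT1L and SLC30A9) and 3 higher (MT1IP, SLC30A3 and SLC39A3), beside 10.6% and 4.22% of all genes. With the experiment as a block, MT1F passed (adjusted p = 0.0361).

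The calls rested on few arrays. With LY2784544 all 4 calls were lost without either control array, the LY2784544 array of experiment 1 or either GRN163L array. Some were lost without the LY2784544 array of experiment 2. In each of these settings fewer genes were called among all genes tested too, so the loss was not particular to the metallothioneins. With the combination the 5 calls became 0 without either control array or the combination array of experiment 1, and 1 without either GRN163L array. The 9 called log2 changes kept their sign in every setting run. They ranged from -1.75 to -1.30 for MT1G with LY2784544 and from -1.91 to -0.98 for MT2A with the combination when 1 array was left out. The block raised the combination's calls among all members from 5 to 10, adding MT1DP, MT1F, MT1H and SLC39A10 as lower and SLC30A3 as higher. With LY2784544 the block raised the calls among all genes tested too, so its added calls were not particular to these members. For the combination the calls among all genes under the block are not given here. Whether that rise was particular to these members is therefore not shown. Dropping both arrays that stood apart was a setting chosen after the data were seen. Its calls are not counted here, as it left 2 of the groups with 1 array.

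All tested metallothioneins but MT1HL1 are neighbours on chromosome 16, in the RefSeq order MT4, MT3, MT2A, MT1L, MT1E, MT1DP, MT1B, MT1F, MT1G, MT1H, MT1IP and MT1X. Called genes ran from MT2A to MT1X, with uncalled ones among them. The tested genes named on either side of the cluster were called in none of the comparisons with control. On the MT4 side, BBS2 was at -0.455, -0.24 and -0.835 with LY2784544, GRN163L and the combination, and OGFOD1 at 0.075, -0.035 and -0.275. On the MT1X side, NUP93 was at -0.24, -0.15 and -0.605, and HERPUD1 at 0.49, 0.26 and 0.04.

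Zinc exporters of the SLC30A family were called in no comparison by limma, and 7 of 10 genes were tested. At most 2.71% of all genes were called in a direction in any comparison. No call among 7 genes is near that share. At an unadjusted p below 0.05, SLC30A3 was higher with LY2784544 and with the combination, where 4.33% and 7.14% of all genes were, and no SLC30A gene with GRN163L, where 2.46% were. Their median change was -0.115 with LY2784544, -0.055 with GRN163L and 0.17 with the combination. SLC30A1, the exporter of the plasma membrane and itself a target of MTF1, was at 6.50 and 6.12 in control, 5.82 and 6.14 under LY2784544, 6.12 and 6.18 under GRN163L and 5.35 and 6.40 under both agents. Its groups overlapped, and the experiments went opposite ways with the combination (-1.15 and 0.28).

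SLC30A3, which loads zinc into synaptic vesicles in neurons, had the largest positive values. It was at 6.39 and 7.27 in control, 7.47 and 8.06 under LY2784544, 6.67 and 6.88 under GRN163L and 7.94 and 8.32 under both agents. The arrays with LY2784544, alone or in the combination, were above all others, and the control arrays were well apart. The change was 0.935 with LY2784544 (SE 0.31, adjusted p = 0.227), 1.30 with the combination (SE 0.31, adjusted p = 0.0576) and 1.355 for the combination against GRN163L (SE 0.31, adjusted p = 0.111). Within experiments it was 1.08 and 0.79 with LY2784544 and 1.55 and 1.05 with the combination. With the experiment as a block all 3 passed (adjusted p = 0.0360, 0.00773 and 0.0140), and the combination against control also passed after median or quantile normalization.

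SLC30A10, known as a manganese exporter, was at 7.53 and 6.58 in control, 7.03 and 7.62 under LY2784544, 7.79 and 7.63 under GRN163L and 7.01 and 8.21 under both agents. The experiments disagreed in sign for LY2784544 (-0.50 and 1.04) and for the combination (-0.52 and 1.63). SLC30A9, a mitochondrial transporter, was at 8.77 and 8.65 in control, 8.29 and 8.68 under LY2784544, 8.91 and 9.05 under GRN163L and 8.87 and 8.99 under both agents. GRN163L and the combination lay above control, with changes of 0.27 (adjusted p = 0.995) and 0.22 (adjusted p = 0.487). SLC30A5, SLC30A6 and SLC30A7, transporters of the secretory pathway, were between -0.345 and 0.17 against control.

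**Figure D4:**
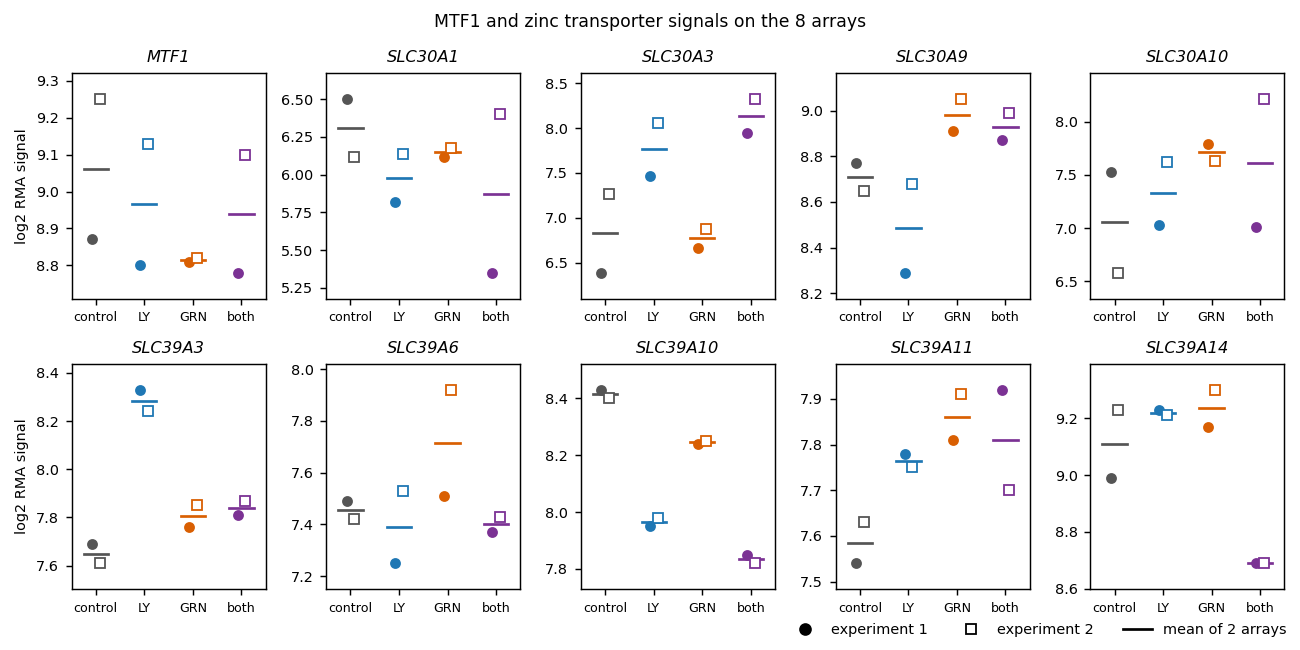
Log2 RMA signal of MTF1 and of the 9 transporter genes named for the size of their change, on each array; symbols as in the metallothionein plot, each panel with its own scale. SLC39A14 is at 8.69 on both combination arrays and at 8.99 to 9.30 on the other 6, and SLC39A10 is lowest with LY2784544 and the combination.

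Zinc importers of the SLC39A family were also called in no comparison by limma, with 11 of 14 genes tested. That too is near the share of all genes, which was at most 2.71% in a direction. At an unadjusted p below 0.05, SLC39A10 was lower and SLC39A3 higher with LY2784544, beside 8.85% and 4.33% of all genes. SLC39A9, SLC39A10 and SLC39A14 were lower with the combination, beside 15.9% of all genes, and none passed with GRN163L. With 11 genes tested, 1 in a direction is near the share of all genes with LY2784544. Their median change was 0.02 with LY2784544, 0.01 with GRN163L and -0.175 with the combination. Both arrays of the combination lay below both GRN163L arrays for 6 of the 11, where 31.3% of all genes did, and below both LY2784544 arrays for 5, where 22.8% did.

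SLC39A10, a plasma membrane importer known from B cells and macrophages, was at 8.43 and 8.40 in control, 7.95 and 7.98 under LY2784544, 8.24 and 8.25 under GRN163L and 7.85 and 7.82 under both agents. The groups were apart from one another, with little spread within each. The change was -0.45 with LY2784544 (SE 0.14, adjusted p = 0.200) and -0.58 with the combination (SE 0.14, adjusted p = 0.0601). The SE is larger than the spread of this gene because limma draws it towards that of all genes. With the experiment as a block the combination passed (adjusted p = 0.0327).

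SLC39A3, another plasma membrane importer, was at 7.69 and 7.61 in control, 8.33 and 8.24 under LY2784544, 7.76 and 7.85 under GRN163L and 7.81 and 7.87 under both agents. Only the LY2784544 arrays stood well above the rest, and the combination was like GRN163L. The change with LY2784544 was 0.635 (SE 0.15, adjusted p = 0.0883), and that of the combination against LY2784544 was -0.445 (SE 0.15, adjusted p = 0.242).

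SLC39A14, which takes up zinc, iron and manganese and is induced in the acute phase, was at 8.99 and 9.23 in control, 9.23 and 9.21 under LY2784544, 9.17 and 9.30 under GRN163L and 8.69 and 8.69 under both agents. The combination lay below the other 6 arrays, which ranged from 8.99 to 9.30. It was -0.53 against LY2784544 (SE 0.15, adjusted p = 0.200), -0.545 against GRN163L (SE 0.15, adjusted p = 0.178) and -0.42 against control (adjusted p = 0.154), and its interaction was -0.655 (unadjusted p = 0.0158, adjusted p = 0.999).

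The other importers named for their size were SLC39A6 and SLC39A11. SLC39A6, an importer linked to oestrogen signalling, was at 7.49 and 7.42 in control, 7.25 and 7.53 under LY2784544, 7.51 and 7.92 under GRN163L and 7.37 and 7.43 under both agents. SLC39A11, an intracellular importer, was at 7.54 and 7.63, then 7.78 and 7.75, 7.81 and 7.91, and 7.92 and 7.70, with every treated array above control and changes of 0.18, 0.275 and 0.225. Of the rest, SLC39A9 was at -0.385 and SLC39A8 at -0.31 with the combination (adjusted p = 0.171 and 0.425), and SLC39A1, SLC39A4, SLC39A7 and SLC39A13 were between -0.24 and 0.285 in the comparisons with control. SLC39A7, which releases zinc from the endoplasmic reticulum, was read by 3 probe sets with the same value on every array.

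The 7 members under the filter were MT1M, SLC30A2, SLC30A4, SLC30A8, SLC39A2, SLC39A5 and SLC39A12, with values from 3.05 to 4.15 over all arrays. SLC39A5, an importer of intestine and pancreas, had the highest of these, at 3.92 and 3.59 in control and 4.15 and 4.11 with both agents. Whether these genes were transcribed was not measured.

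**Figure D5:**
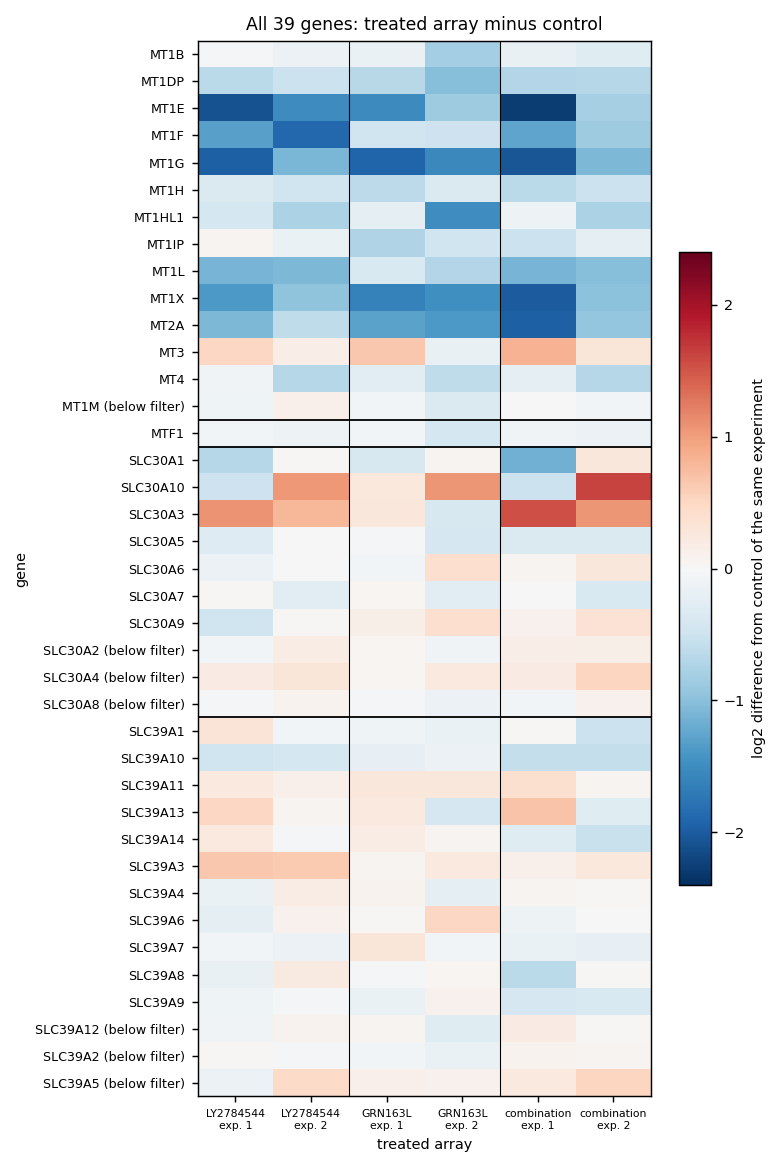
Each treated array minus the control array of the same experiment, in log2 units, for all 39 genes (blue lower, red higher; black lines part metallothioneins, MTF1, SLC30A and SLC39A genes). The block of blue is in the metallothioneins, in both experiments and all treatments; MT3 and SLC30A3 are mostly red, and MTF1 is pale throughout.

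Other metal handling genes, and the lists that follow, are given by their called members and the 2 smallest p-values per comparison with control. Of 18 listed copper, manganese and other metal handling genes 16 were tested. With the combination 1 was called higher, where 0.756% of all genes were. That gene, ATP7B, the copper-exporting ATPase of Wilson disease, rose from 8.88 and 8.56 to 9.68 and 9.41 (0.825, SE 0.18, adjusted p = 0.0478). It was at 8.74 and 8.58 with LY2784544 and 9.34 and 9.18 with GRN163L, so that the arrays with GRN163L were the highest. TMEM163, a zinc exporter, was at -0.685 with the combination (adjusted p = 0.0722), and no gene of this list was called with either agent alone. COX17, the copper chaperone of cytochrome oxidase, had the list's largest difference with the combination (0.915, adjusted p = 0.0895), and ATP2C1, a Golgi calcium and manganese pump, was at 0.585 (adjusted p = 0.105), both named after their values were seen. The smallest p-values with LY2784544 were those of TRPM7, a zinc-permeable channel (0.445), and CCS, the copper chaperone of superoxide dismutase (0.52), and with GRN163L those of ATP7B (0.54) and TMEM163 (-0.37). The list's median change was 0.075, 0.005 and 0.0525 with LY2784544, GRN163L and the combination.

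Of 11 genes of metal and protein stress 10 were tested and none was called against control. At most 2.71% of all genes were called in a direction in those comparisons, so no call among so few genes is near the share of all genes. HMOX1, the haem oxygenase induced by heavy metals, was at 6.31 and 6.50 in control and 5.77 and 5.75 with GRN163L (-0.645, adjusted p = 0.878), and the heat shock gene DNAJB1 at 0.985 with that agent. With LY2784544 HSPB1 was at 0.915 (adjusted p = 0.140) and HSPH1 at -0.50, and with the combination BAG3 at -0.51 and SRXN1 at -0.535. The list's largest differences, named after their values were seen, were those of the heat shock genes HSPA1A (-0.675, 1.425 and -1.135 with LY2784544, GRN163L and the combination) and HSPA6 (-1.26, 1.335 and -1.195). Their control arrays were far apart, at 10.72 and 8.28 for HSPA1A and 7.54 and 5.32 for HSPA6, and DNAJB1 was at -0.895 with LY2784544. The list's median was -0.19, 0.08 and -0.46 in the same order. Of 8 glucocorticoid-induced genes 6 were tested and none was called against control, beside the same shares of all genes. ERRFI1 was at -0.37 and PER1 at -0.55 with LY2784544, TSC22D3 at 0.55 (adjusted p = 0.926) and PER1 at -0.39 with GRN163L, and PER1 at -0.72 (adjusted p = 0.130) and DUSP1 at -1.225 with the combination. The list's median was -0.25, -0.015 and -0.31.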

How the data were processed

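Total RNA of 8 HEL cultures, 4 treatments in each of 2 experiments, was hybridised after amplification of 150 ng. Each probe set has 1 log2 value per array, deposited by the authors and made with RMA in Affymetrix Expression Console, per the submitters' processing notes. No source used here gives the program's version, the genome build or whether all arrays were normalized together. Log base 2 was taken from the range of the values.

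Of 33297 probe sets, 19181 name 1 gene in GEO's platform annotation, 2055 several and 12061 none. Of the 1-gene probe sets, 19143 were found in RefSeq's gene table (GRCh38.p14), which changed no symbol. A model with 4 group means was fitted with limma (version 3.58.1, R 4.3.3) to 12570 genes on all 8 arrays. Residual degrees of freedom were 4, and moderation added 4.65. A run of the model on simulated data used independent noise. It lacked the correlation between arrays of 1 experiment given below and does not test for its effect. Labels name the experiment of each array, so replicates pair. Deviations correlated between arrays of 1 experiment with r from 0.10 to 0.67. Nothing says what else separated the cultures, and p-values then reflect only how far these samples spread, which may be technical. No array was a copy of another (at most 1.90% equal values).

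Named genes were MTF1, each tested metallothionein, each called member and, per comparison with control, the 2 SLC30A and 2 SLC39A genes of largest change. Of the other lists, called genes and the 2 of smallest p were named. Members and lists were chosen with earlier results of these data known. Alternatives were the experiment block, the filter (none or 50th percentile), median or quantile normalization, averaging the probe sets of a gene, compared groups only, a mean-variance trend and leaving out each array. Promoter letters came from RefSeq (GRCh38.p14). The number of arrays limits the precision.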

Additional observations from a re-analysis of the deposited data

How the results depend on the processing

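Counts of members called are given here, over the alternatives run. Fitting only the compared groups gave 1 call for LY2784544 against control (MT1F), 2 for GRN163L against control (MT1G and MT1X), 1 for the combination against control (MT1G) and 1 for LY2784544 against GRN163L (MT1F). Such fits have fewer arrays, and their calls among all genes tested are not given here. Whether their calls were particular to the members is therefore not shown. The experiment as a block, which pairs the arrays, gave 6 for LY2784544 against control (adding MT1X and SLC30A3). It gave 10 for the combination against control, 1 for the combination against GRN163L (SLC30A3) and 2 for LY2784544 against GRN163L (MT1F and SLC30A3). The block moved no other count by more than 1.5 times. For LY2784544 against control it also raised the calls among all genes tested, so the rise was not particular to the members. The experiment 1 arrays of LY2784544 and of the combination were also dropped, a setting added after seeing the data. Its calls are not counted here, as it left 2 of the groups with 1 array. Leaving out 1 array gave 0 to 5 calls for LY2784544, 0 to 6 for the combination, 0 for GRN163L, and 0 to 1 for LY2784544 against GRN163L. It gave 0 in the other comparisons. A group left with 1 array was assumed to vary like the others. Filters, normalizations, probe set means and the trend kept every count within 1.5 times. The 9 called changes of named members kept their sign in all 151 alternative values and lost their call in 56, of which 45 left out an array. Of 2514 alternative values of the 152 changes not called, 113 changed sign and 24 passed. The causes were not tested. MT1B, MT1H, MT1HL1, MT1IP, MT3 and MT4 had low signals, and the arrays give no measure of background. MT1E, with a mean of 5.96, also fell under the 50th percentile filter. It was not tested there, which left 3 members called with LY2784544. No result met a rule for a closer look: groups of 2 arrays are too small for a test of outliers, and no interaction passed.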
